A study of Mus musculus with 18 samples.

Results

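Loss of Ndp was examined in granule neuron progenitors (GNPs) that carried a mutant Ptch allele, by setting NdpKO;Ptch+/- GNPs against Ptch+/- GNPs. The arrays were chosen by their titles alone, 4 of each genotype, which made 8 of the 18 arrays in the series. The other arrays held 4 NdpKO and 4 wild-type (WT) GNP samples and 2 medulloblastomas. GNPs were purified from the cerebellum at postnatal day 6 on a Percoll gradient followed by pre-plating, and their total RNA was hybridised to Illumina MouseWG-6 v2 arrays. The NdpKO allele disrupts the X-linked Ndp locus with a lacZ cassette in all cells, and by the design of the cross the NdpKO;Ptch+/- animals were Ndp-/y males. Both groups were heterozygous for the same Ptch mutation, also in all cells, and differed by label in Ndp. The Ptch+/- samples are labelled C57Bl/6, whereas NdpKO mice were kept on a mixed background and 3 of the 4 NdpKO;Ptch+/- samples carry no strain label. The design text places mutants and controls in 1 breeding cohort, but by these sample labels strain and loss of Ndp cannot be told apart. All values are log2 levels after the normalization of the authors, on a scale where background lies near 4.1, and differences are NdpKO;Ptch+/- minus Ptch+/- with their SE.

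Norrin, the secreted product of Ndp, binds Frizzled4 on endothelial cells together with the co-receptors Lrp5 and Tspan12. Binding stabilises beta-catenin in those cells, and this signal drives vessel growth and barrier formation in the retina and cerebellum. Ptch1 encodes the receptor that holds hedgehog signalling in check, and GNPs divide in response to Sonic hedgehog before they leave the cycle and become granule neurons. A mouse with 1 mutant Ptch allele is a standard model of Sonic hedgehog medulloblastoma, which arises from GNPs.

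Not every array lay with its group. Over the 9734 probes with 1 gene symbol and a mean at or above level 5 in at least 1 of both groups, NdpKO;Ptch+/- replicate 1 correlated at 0.965 to 0.968 with the other 3 arrays of its genotype and at 0.982 to 0.983 with the 4 Ptch+/- arrays. The other 3 NdpKO;Ptch+/- arrays correlated at 0.981 to 0.987 with each other and at 0.959 to 0.975 with Ptch+/- arrays. They also correlated at 0.982 to 0.990 with NdpKO replicate 4, against 0.957 to 0.976 with the other 3 NdpKO arrays. With WT arrays they correlated at 0.963 to 0.982. NdpKO;Ptch+/- replicate 1 correlated at 0.982 to 0.984 with those other 3 NdpKO arrays. This split of the arrays crossed the genotypes, and its cause was not tested. The comparison of both groups is therefore given with and without NdpKO;Ptch+/- replicate 1. A second doubt concerns NdpKO;Ptch+/- replicate 2, whose source and genotype labels say Ndp knockout and whose strain label says mixed. Its Prm1 level was 9.92, beside 9.79 to 10.66 in the other NdpKO;Ptch+/- arrays and 10.13 to 10.51 in Ptch+/- arrays, whereas all NdpKO and WT arrays lay between 4.11 and 4.13. By Prm1 this array thus lay with both genotypes that carry the mutant Ptch allele, and it was kept by its title. Last, Xist, the transcript of the inactive X chromosome, was at 4.10 to 4.11 in the 4 NdpKO;Ptch+/- arrays, against 10.02 in Ptch+/- replicate 3 and 4.11 to 4.12 in the other 3 Ptch+/- arrays. The Y-linked Eif2s3y was at 4.11 in that same Ptch+/- array and at 8.23 to 8.77 in the other 7 arrays. By both transcripts Ptch+/- replicate 3 was female and the other 7 arrays were male, though sex is not labelled. The design allows controls of both sexes.

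The targeted gene could not be checked, because the Ndp probe (ILMN_1255523) lay at background on every array, 4.10 to 4.13 in NdpKO;Ptch+/- and 4.11 to 4.12 in Ptch+/- GNPs. Ptch1 (ILMN_2460224) measured 8.12, 7.80, 8.23 and 8.11 in NdpKO;Ptch+/- GNPs, against 7.94, 7.86, 7.88 and 7.63 in Ptch+/- GNPs. The groups overlapped, with a difference of 0.23 ± 0.10 (limma adjusted p = 0.52) and of 0.21 ± 0.11 without replicate 1 (limma adjusted p = 0.51). The samples carried a part of the markers of their cell type, with 11 of 18 progenitor identity genes at level 5. Zic1 averaged 12.83 and Insm1 12.89 in NdpKO;Ptch+/- GNPs, and 13.01 and 12.81 in Ptch+/- GNPs, while the probes of Atoh1 and Pax6, also markers of GNPs, lay below level 5 in both groups.

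Few differences passed the test over the whole array. Of 45281 probes, 7 were called at an adjusted p below 0.05 in limma, which is 0.0155% of all, and all 7 were lower in NdpKO;Ptch+/- GNPs. At an unadjusted p below 0.05 there were 3927 probes, 1810 higher and 2117 lower. Without NdpKO;Ptch+/- replicate 1 the number called was 232 (0.512%), 110 higher and 122 lower, and the 7 were among them. Of the 232, 184 had 1 gene symbol and a level of at least 5. The other readout was whether the values of the groups overlapped. The 4 NdpKO;Ptch+/- values lay above all 4 Ptch+/- values in 399 of the 9734 gene probes (4.1%) and below all of them in 508 (5.22%). Without replicate 1 these numbers were 1278 and 1506, and without any other single array they were 461 to 607 and 575 to 758. Replicate 1 was the NdpKO;Ptch+/- array nearest to Ptch+/- in 250 of the 399 probes (62.7%) and in 274 of the 508 (53.9%). At the limit of level 5, Cnksr3 entered with means of 4.84 in NdpKO;Ptch+/- and 5.0002 in Ptch+/- GNPs, and Utp25 stayed out with 4.86 and 4.9994.

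Tpmt, thiopurine methyltransferase, had the smallest adjusted p of the named genes. Probe ILMN_2800466 measured 4.43, 4.63, 4.54 and 4.27 in NdpKO;Ptch+/- GNPs, against 6.48, 6.62, 6.44 and 6.42 in Ptch+/- GNPs. The fall was -2.02 ± 0.19, at least 2.81-fold (limma adjusted p = 0.0046), and -2.01 ± 0.21 without replicate 1 (limma adjusted p = 0.0039). A brighter probe of Tpmt (ILMN_1217372) gave a smaller difference with overlapping groups, with means of 7.12 in NdpKO;Ptch+/- and 7.76 in Ptch+/- GNPs (-0.64 ± 0.20, limma adjusted p = 0.36). In NdpKO and WT GNPs the first probe lay at 4.21 to 5.22 and 4.398 to 4.95, so its high level was found in Ptch+/- GNPs among the 4 genotypes.

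Thg1l, which adds a guanosine to histidine tRNA, fell to 5.97, 5.54, 5.04 and 5.64 in NdpKO;Ptch+/- GNPs, against 6.94, 7.31, 7.40 and 7.09 in Ptch+/- GNPs. The difference was -1.64 ± 0.18, 3.11-fold (limma adjusted p = 0.0082), and -1.78 ± 0.17 without replicate 1 (limma adjusted p = 0.0026). Ube2cbp, which encodes a binding partner of a ubiquitin-conjugating enzyme, fell to 6.80, 6.63, 6.01 and 6.52 in NdpKO;Ptch+/- GNPs, against 8.16, 7.56, 8.08 and 8.03 in Ptch+/- GNPs. Its difference was -1.47 ± 0.20, 2.77-fold (limma adjusted p = 0.036), and -1.57 ± 0.21 without replicate 1 (limma adjusted p = 0.015). Leaving out each of the 8 arrays in turn, Ube2cbp was called in 2 of 8 fits, whereas Thg1l, Tpmt and Map2k6 were called in 8 of 8. Fitted on the 8 arrays alone, Tpmt passed (limma adjusted p = 0.0051) and Thg1l and Map2k6 did not (limma adjusted p = 0.18 each), and with a replicate block the values were 0.046 for Tpmt and 0.063 for each of the others.

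Map2k6, a kinase that activates stress-responsive MAP kinases, was lower without overlap on all 3 of its probes at level 5. Probe ILMN_1215521 measured 4.33, 4.34, 4.62 and 4.405 in NdpKO;Ptch+/- GNPs, against 5.09, 5.21, 5.13 and 5.01 in Ptch+/- GNPs (-0.69 ± 0.08, limma adjusted p = 0.0082, and -0.66 ± 0.08 without replicate 1, limma adjusted p = 0.010). The brightest probe of the gene (ILMN_2623856) averaged 6.87 in NdpKO;Ptch+/- and 7.39 in Ptch+/- GNPs, without overlap, and was not itself called (-0.51 ± 0.11, limma adjusted p = 0.20). Stra6, the fifth named gene called, moved within background, at 4.14 in NdpKO;Ptch+/- and 4.17 in Ptch+/- GNPs. Of the 2 called probes without a gene symbol, ILMN_2547548 also lay at background. The other, ILMN_2690603, was chosen for mention after its values were seen. It measured 4.12, 4.12, 4.12 and 4.12 in NdpKO;Ptch+/- GNPs, against 5.80, 6.91, 6.35 and 7.58 in Ptch+/- GNPs (-2.54 ± 0.28, limma adjusted p = 0.0082). It was likewise at 4.11 to 4.14 in NdpKO GNPs, against 8.42 to 9.01 in WT GNPs. In each of the 7 called probes NdpKO;Ptch+/- replicate 1 lay with the other arrays of its genotype and outside the Ptch+/- range.

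**Figure D1:**
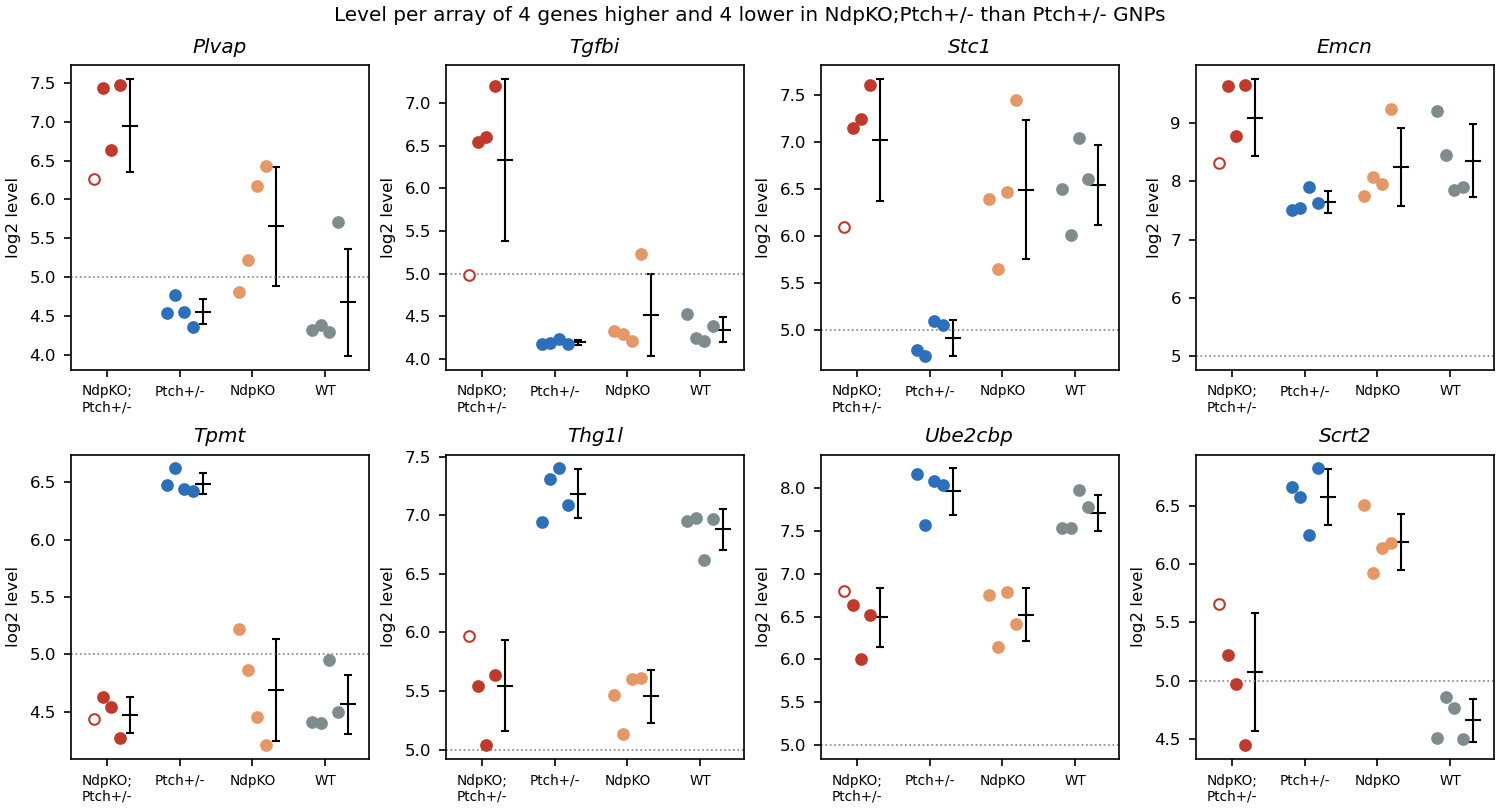
Log2 level (vertical axis, a scale per gene) of 4 genes whose NdpKO;Ptch+/- values lay above and 4 whose values lay below those of Ptch+/- GNPs, in the 16 GNP arrays by genotype. Points are arrays, the open point is NdpKO;Ptch+/- replicate 1, bars are mean ± SD of 4 arrays and the dotted line is level 5. Tpmt stands at 6.42 to 6.62 in Ptch+/- arrays alone, and Thg1l and Ube2cbp are low in both genotypes without Ndp.

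Among the genes that were higher in all 4 NdpKO;Ptch+/- arrays, the widest differences were those of Plvap, Tgfbi and Stc1. No higher gene passed the test with all 8 arrays. Plvap, which forms the diaphragms of fenestrated endothelium and is low in mature brain vessels, measured 6.26, 7.43, 6.64 and 7.47 in NdpKO;Ptch+/- GNPs, against 4.54, 4.77, 4.56 and 4.36 in Ptch+/- GNPs. All 4 Ptch+/- values lay below level 5 and all 4 NdpKO;Ptch+/- values above 6. The difference was 2.39 ± 0.41, at least 3.86-fold (limma adjusted p = 0.11). It rose by 2.62 ± 0.43, at least 4.53-fold, without replicate 1 (limma adjusted p = 0.032).

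Tgfbi, a matrix protein induced by transforming growth factor beta, measured 4.98, 6.55, 6.60 and 7.20 in NdpKO;Ptch+/- GNPs, against 4.18, 4.18, 4.23 and 4.18 in Ptch+/- GNPs. Replicate 1 was the lowest of its group, at the edge of background. The difference was 2.14 ± 0.37, at least 2.52-fold (limma adjusted p = 0.11), and it rose by 2.59 ± 0.23, at least 3.44-fold, without replicate 1 (limma adjusted p = 0.0016). Stc1, the secreted glycoprotein stanniocalcin, measured 6.10, 7.15, 7.25 and 7.61 in NdpKO;Ptch+/- GNPs, against 4.78, 4.73, 5.10 and 5.06 in Ptch+/- GNPs. Its difference was 2.11 ± 0.37, at least 4.07-fold (limma adjusted p = 0.12), and without replicate 1 it rose by 2.42 ± 0.35 (limma adjusted p = 0.021). In both genes the gap between the groups was wider than the whole range of Ptch+/- values. In WT GNPs Stc1 was at 6.02 to 7.05, whereas Plvap was at 4.29 to 5.71 and Tgfbi at 4.21 to 4.53.

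The remaining 12 of the 15 genes with the highest differences included Emcn and Emp1. Emcn, the endothelial sialomucin endomucin, measured 8.32, 9.64, 8.78 and 9.65 in NdpKO;Ptch+/- GNPs, against 7.52, 7.53, 7.91 and 7.62 in Ptch+/- GNPs (1.45 ± 0.39, 2.73-fold, limma adjusted p = 0.31). Without replicate 1 it was 1.71 ± 0.40 (limma adjusted p = 0.088). Emp1, an epithelial membrane protein, measured 9.06, 10.49, 10.15 and 10.68 in NdpKO;Ptch+/- GNPs, against 8.49, 8.65, 8.54 and 8.68 in Ptch+/- GNPs (1.502 ± 0.34, 2.83-fold, limma adjusted p = 0.22), and rose without replicate 1 (1.85 ± 0.27, limma adjusted p = 0.021). The others were the endothelial repressor Bcl6b, the neuropeptide Sst, the transporter Slc16a6, the Ras activator Rasgrp1, the folliculin partner Fnip1, the pentose phosphate enzyme Rpe, the glutamate receptor subunit Gria1, the death-promoting Bcl2l11, the translation inhibitor Eif4ebp1 and the perinatal myosin Myh8. Their differences lay between 1.45 and 1.79, and between 1.38 and 2.34 without replicate 1, where none of these 10 was called. Over the 15 genes, the difference of NdpKO minus WT GNPs was negative in 12 and positive in 3. Over all 399 higher gene probes it was negative in 318 and positive in 81, so the 15 genes had about the same share. In 12 of the 15 genes NdpKO;Ptch+/- replicate 1 was the array nearest to Ptch+/-, and 4 of the 15 were called without it. Bcl6b shows how far it could stand from its group, with 4.39 in replicate 1 and 6.54, 6.21 and 6.998 in the other NdpKO;Ptch+/- arrays, against 4.21 to 4.35 in Ptch+/- GNPs.

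The 15 genes with the lowest differences included, beside Tpmt, Thg1l and Ube2cbp, the gene Scrt2, a zinc finger repressor of newborn neurons, which measured 5.66, 5.22, 4.97 and 4.45 in NdpKO;Ptch+/- GNPs, against 6.66, 6.58, 6.25 and 6.82 in Ptch+/- GNPs. The difference of -1.50 ± 0.22, 2.84-fold, missed the threshold (limma adjusted p = 0.053), and Scrt2 fell by 1.70 ± 0.20 without replicate 1 (limma adjusted p = 0.0078). Ooep, a gene known from the oocyte, measured 5.33, 5.47, 5.18 and 4.44 in NdpKO;Ptch+/- GNPs, against 6.58, 6.22, 6.38 and 6.58 in Ptch+/- GNPs (-1.33 ± 0.22, limma adjusted p = 0.081, and -1.41 ± 0.24 without replicate 1, limma adjusted p = 0.035). Map6, which stabilises neuronal microtubules, measured 5.53, 4.46, 4.55 and 4.38 in NdpKO;Ptch+/- GNPs, against 6.00, 6.52, 6.52 and 6.07 in Ptch+/- GNPs. Replicate 1 lay apart from the other 3 arrays of its genotype here, and the difference was -1.55 ± 0.31 with it (limma adjusted p = 0.16) and -1.81 ± 0.28 without it (limma adjusted p = 0.025). A brighter Map6 probe (ILMN_2439378) overlapped between the groups at -0.67, and at -0.81 without replicate 1 (limma adjusted p = 0.10), and another probe (ILMN_2744006) also overlapped, at -0.25. The nicotinic receptor subunit Chrnb2 was at 5.14 to 6.01 in NdpKO;Ptch+/- and 6.69 to 6.76 in Ptch+/- GNPs (-1.22 ± 0.24, limma adjusted p = 0.16), and fell by 1.39 ± 0.24 without replicate 1 (limma adjusted p = 0.036). The RNA-binding protein Celf4 was at 4.85 to 6.39 and 6.51 to 7.28 in the same order (-1.21 ± 0.29, limma adjusted p = 0.28, and -1.29 ± 0.32 without replicate 1, limma adjusted p = 0.10), and all 4 of its probes at level 5 were lower without overlap. The others were Samd12, Slc2a6, Gpr162, Csrnp1, Purg, Nhlrc1 and Zbtb46, between -1.34 and -1.14, and between -1.56 and -1.25 without replicate 1. Of the 15, 8 were called without replicate 1.

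Without replicate 1 further genes passed the test, some of which this array alone kept from separating the groups. Of the 20 genes named in that fit, 10 overlapped between the groups with all arrays. Actc1, the cardiac actin, measured 4.18 in replicate 1 and 6.87, 6.17 and 6.70 in the other NdpKO;Ptch+/- arrays, against 4.14 to 4.23 in Ptch+/- GNPs. It rose by 2.40 ± 0.16, at least 2.98-fold, without replicate 1 (limma adjusted p = 1.8e-04), against a difference of 1.80 ± 0.44 with it (limma adjusted p = 0.28). The same shape was found in Efna1, an ephrin ligand, with 4.19 in replicate 1 and 6.38 to 7.10 in the others, against 4.15 to 4.21 in Ptch+/- GNPs, and in Tnnt1, a slow muscle troponin, with 4.34 and 5.64 to 7.38, against 4.19 to 4.45. The clock gene Per2, the zinc finger gene Zfp87 and the nuclear lamina gene Lmna also rose there, by 2.07 ± 0.39, 1.83 ± 0.35 and 1.75 ± 0.33. In the other direction, Lars2, the mitochondrial leucyl-tRNA synthetase, measured 7.37 in replicate 1 and 4.83 to 5.24 in the other NdpKO;Ptch+/- arrays, against 7.34 to 7.64 in Ptch+/- GNPs. Pkig, an inhibitor of protein kinase A, measured 6.85 and 4.47 to 4.64, against 6.72 to 7.14. Both fell by 2.42 ± 0.43 without replicate 1 (limma adjusted p = 0.040 each). A brighter Pkig probe (ILMN_3090728) did not pass, with overlapping groups, means of 7.48 in NdpKO;Ptch+/- and 7.96 in Ptch+/- GNPs, and -0.56 without replicate 1 (limma adjusted p = 0.56). Cyp11a1, the first enzyme of steroid hormone synthesis, and the zinc finger gene Zgpat fell by 1.77 ± 0.33 and 1.56 ± 0.30.

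**Figure D2:**
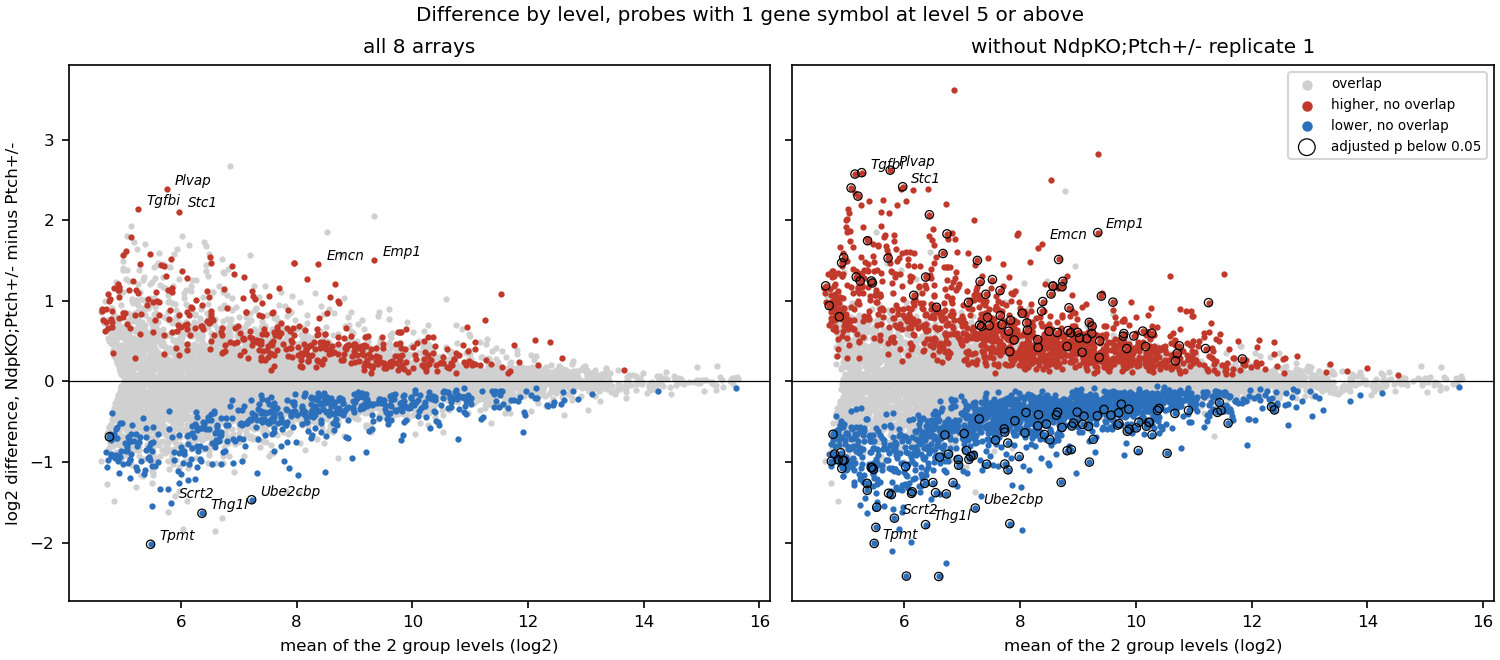
Log2 difference, NdpKO;Ptch+/- minus Ptch+/- GNPs (vertical axis), against the mean of both group levels (horizontal axis, log2) for 9734 gene probes, with all 8 arrays (left) and without NdpKO;Ptch+/- replicate 1 (right). Coloured points did not overlap between the groups and circled points had an adjusted p below 0.05. Of the 232 probes called without replicate 1, the 184 with 1 symbol and level 5 are among the points on the right.

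Vessel genes were examined as groups because Norrin acts on endothelium. The lists were chosen with earlier results of these data known, and are described without a test. In these tables a gene was read by its brightest probe. Of all 7063 genes at level 5, 4.56% were higher and 5.15% lower without overlap, and 14.5% and 15.3% without replicate 1, with medians of -0.010 and -0.018. The study assayed 5 vascular genes by qRT-PCR in medulloblastomas, where they were higher in NdpKO;Ptch+/- than in Ptch+/- tumours. For GNPs at postnatal day 6 it reported no clear separation of the mutants by principal components. In the GNPs here 4 of the 5 reached level 5, 2 of those (Plvap and Emcn) were higher without overlap and the median was 1.59. Without replicate 1 all 4 were higher without overlap, with a median of 2.05. Pecam1, an adhesion molecule of endothelial junctions, measured 5.33, 7.004, 5.96 and 7.07 in NdpKO;Ptch+/- GNPs, against 5.12, 4.36, 5.90 and 4.81 in Ptch+/- GNPs (1.30 ± 0.50, limma adjusted p = 0.48, and 1.63 ± 0.50 without replicate 1, limma adjusted p = 0.19). Angpt2, a ligand that loosens vessels for sprouting, measured 5.28, 7.96, 7.48 and 8.35 in NdpKO;Ptch+/- GNPs, against 5.69, 5.35, 5.29 and 5.82 in Ptch+/- GNPs (1.73 ± 0.70, limma adjusted p = 0.51, and 2.39 ± 0.59 without replicate 1, limma adjusted p = 0.105). In both genes replicate 1 lay within or below the Ptch+/- range. In WT GNPs Pecam1 was at 5.72 to 7.26 and Angpt2 at 7.39 to 7.70. The tip cell gene Esm1 stayed below level 5, with 4.14, 4.62, 4.27 and 4.32 in NdpKO;Ptch+/- GNPs, against 4.11 to 4.12 in Ptch+/- GNPs (0.22 ± 0.07, limma adjusted p = 0.37, and 0.29 ± 0.06 without replicate 1, limma adjusted p = 0.067). The tight junction gene Cldn5 was at 10.71 to 11.63 in NdpKO;Ptch+/- and 10.59 to 11.29 in Ptch+/- GNPs, a difference of 0.09 ± 0.29 (limma adjusted p = 0.97), and of 0.25 ± 0.31 without replicate 1 (limma adjusted p = 0.88).

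Endothelial identity genes separated the groups mainly without replicate 1. Of 20 endothelial identity genes at level 5, 1 was higher without overlap with all 8 arrays and 12 without replicate 1, with medians of 0.64 and 0.98. Without Ptch+/- replicate 3 there were 3. None of the 20 was called in either fit. With all 8 arrays 19 of the 20 differences were positive and 1 was negative, that of Vwf. It averaged 7.15 in NdpKO;Ptch+/- and 8.03 in Ptch+/- GNPs, a difference of -0.88, and of -0.54 without replicate 1. Sox18, a transcription factor of vessel growth, measured 7.54 in replicate 1 and 10.06, 9.96 and 10.26 in the other NdpKO;Ptch+/- arrays, against 7.27 to 7.95 in Ptch+/- GNPs. The mean level over the 20 genes was 6.94, 8.35, 7.80 and 8.61 in NdpKO;Ptch+/- GNPs, against 7.25, 6.74, 7.60 and 7.40 in Ptch+/- GNPs. It was 6.80, 7.20, 7.02 and 8.10 in NdpKO and 9.06, 8.20, 7.77 and 7.76 in WT GNPs. NdpKO;Ptch+/- replicate 1 thus lay within the Ptch+/- range and the other 3 arrays above it. The summed unlogged signal of the list ran between 6588 and 15839 in NdpKO;Ptch+/- and between 5959 and 8778 in Ptch+/- GNPs. In bulk samples, fewer cells of a type and less RNA per cell cannot be told apart. The defining genes Kdr, Tie1 and Erg were below level 5 in both groups. Of 10 tip cell and fenestration genes 2 were higher without overlap, 5 without replicate 1. The 2 were Plvap and Vegfa, and Vegfa was also counted in the hypoxia list. Of 8 barrier genes 0 separated the groups in either direction, 2 were higher without replicate 1 and 2 were lower without Ptch+/- replicate 2.

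A short core of the beta-catenin partners TCF/LEF, CTTTGA on either strand, was searched in the 300 bases around gene starts, because Norrin acts through them. RefSeq promoters (GRCm38.p6) were matched for 9 of the 20 endothelial genes, and Egfl7, Nostrin and Robo4 held it. Of the tip cell and fenestration genes 5 were matched and 0 held it. Of all 27025 genes with a promoter 18.2% held it. The Robo4 promoter is shown as the example, at chr9:37401722-37402021 on the plus strand, with the match in capitals (reverse strand).
Robo4: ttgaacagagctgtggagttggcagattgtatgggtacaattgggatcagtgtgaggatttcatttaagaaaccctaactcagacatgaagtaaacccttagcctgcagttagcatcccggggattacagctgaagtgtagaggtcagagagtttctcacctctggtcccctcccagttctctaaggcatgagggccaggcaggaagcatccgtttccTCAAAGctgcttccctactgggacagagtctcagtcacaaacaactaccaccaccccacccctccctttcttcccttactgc
Robo4, a receptor of endothelial cells, averaged 9.08 in NdpKO;Ptch+/- and 8.23 in Ptch+/- GNPs, a difference of 0.85 with overlapping groups and of 1.15 without replicate 1 (limma adjusted p = 0.17). Of the Norrin and beta-catenin list 6 of 17 genes reached level 5 and 0 separated the groups, and 1 was higher and 1 lower without replicate 1. Axin2, a common target of the pathway, averaged 7.33 in NdpKO;Ptch+/- and 7.11 in Ptch+/- GNPs, and the co-receptor Tspan12 6.49 and 6.45. Their differences were 0.22 and 0.04, and 0.36 and -0.01 without replicate 1.

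Support cells and matrix were measured beside the vessels. Of 16 basement membrane and matrix genes 3 were higher without overlap and 0 lower, and 5 and 0 without replicate 1. Tnc, the matrix glycoprotein tenascin C, was at 7.26 to 7.93 in NdpKO;Ptch+/- and 6.44 to 7.25 in Ptch+/- GNPs (0.87 ± 0.19, limma adjusted p = 0.21, and 0.83 ± 0.21 without replicate 1, limma adjusted p = 0.11). The basement membrane chain Col4a1 was at 10.24 to 11.08 and 10.05 to 10.11 in the same order (0.55 ± 0.20, limma adjusted p = 0.45, and 0.68 ± 0.20 without replicate 1, limma adjusted p = 0.18), and the laminin chain Lamc1 at 7.53 to 8.05 and 7.30 to 7.43 (0.46 ± 0.12, limma adjusted p = 0.29, and 0.55 ± 0.11 without replicate 1, limma adjusted p = 0.0595). Of 6 mural and fibroblast genes Lum and Pdgfra were higher without overlap, and 3 were without replicate 1. Of 14 astrocyte and Bergmann glia genes 4 were higher, Gdf10, Slc1a3, Sox9 and Vim, and Gfap was lower. These counts were 5 and 1 without replicate 1, and 7 and 1 without Ptch+/- replicate 3. Slc1a3, the glutamate transporter of Bergmann glia, measured 12.64, 12.58, 12.44 and 12.86 in NdpKO;Ptch+/- GNPs, against 11.81, 12.42, 12.32 and 12.02 in Ptch+/- GNPs (0.49 ± 0.17, limma adjusted p = 0.42, and 0.48 ± 0.19 without replicate 1, limma adjusted p = 0.33). Replicate 1 lay here with its own genotype. The summed unlogged signal of the glial list was 19604 to 23582 in NdpKO;Ptch+/- and 15391 to 17699 in Ptch+/- GNPs, without overlap, and its part in the other differences was not tested. Of the 18 microglia and leukocyte genes with a probe, 5 reached level 5 and 0 separated the groups, with or without replicate 1, and Aif1, Csf1r and Cx3cr1 lay below level 5.

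Of all the lists, that of immediate-early genes had the highest share of lower members. These genes respond within minutes to stimulation, and also to the handling of dissociated cells. Of 16 members at level 5, 8 were lower and 0 higher without overlap, beside 5.15% of all genes, with a median of -0.33. Without replicate 1 the numbers were 10 and 0 with a median of -0.35, and without each of the other 7 arrays 8 or 9 were lower. The summed unlogged signal of the list was 18468, 13522, 13853 and 14129 in NdpKO;Ptch+/- GNPs, against 19287 to 20523 in Ptch+/- GNPs. It was 19642, 19770, 18773 and 13374 in NdpKO and 15360 to 18334 in WT GNPs. NdpKO;Ptch+/- replicate 1 and NdpKO replicate 4 thus stood apart from the other arrays of their genotypes, and the cause was not tested. None was called in either fit. Zfp36, which destabilises messenger RNAs, measured 9.06, 8.34, 8.09 and 8.47 in NdpKO;Ptch+/- GNPs, against 9.42, 9.33, 9.51 and 9.51 in Ptch+/- GNPs (-0.95 ± 0.24, 1.93-fold, limma adjusted p = 0.29, and -1.14 ± 0.23 without replicate 1, limma adjusted p = 0.061). The AP-1 subunit Jun measured 10.75, 10.15, 10.63 and 10.18 in NdpKO;Ptch+/- GNPs, against 11.31, 11.06, 11.002 and 11.20 in Ptch+/- GNPs (-0.72 ± 0.16, limma adjusted p = 0.24, and -0.82 ± 0.17 without replicate 1, limma adjusted p = 0.059). Klf2, a zinc finger factor that flow induces in endothelium, measured 8.84, 8.42, 8.18 and 8.59 in NdpKO;Ptch+/- GNPs, against 8.87, 9.25, 9.39 and 9.28 in Ptch+/- GNPs (-0.69 ± 0.21, limma adjusted p = 0.35, and -0.80 ± 0.22 without replicate 1, limma adjusted p = 0.14). The zinc finger factor Egr1 measured 12.10, 11.45, 11.34 and 11.51 in NdpKO;Ptch+/- GNPs, against 12.26, 12.10, 12.21 and 12.33 in Ptch+/- GNPs (-0.62 ± 0.21, limma adjusted p = 0.42, and -0.79 ± 0.20 without replicate 1, limma adjusted p = 0.12). The top of the first range and the bottom of the second differed by less than a hundredth of a unit in Egr1. Egr2, Atf3, Jund and the phosphatase Dusp6 were the other 4. In WT GNPs Zfp36 was at 8.57 to 9.28 and Jun at 10.46 to 10.70, so that Jun in Ptch+/- GNPs lay above WT.

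Many immediate-early promoters carry the CArG box, the site of serum response factor. It was searched on both strands in the 14 of 16 members with a RefSeq promoter, and was found in Egr2 and Zfp36, beside 1.81% of all 27025 genes. Other short cores were searched in the same 14 and in the vessel lists above. Of the 14, 0 held the AP-1 site, 1 the cyclic AMP response element, 2 the ETS core and 1 the TCF/LEF core. The shares of all genes were 5.95%, 2.03%, 16.7% and 18.2% in that order. The Egr2 and Zfp36 promoters are shown, the boxes in capitals, since both genes were lower without overlap. The Zfp36 promoter lies at chr7:28379179-28379478 on the minus strand and the first of 4 matching Egr2 promoters at chr10:67537316-67537615 on the plus strand (GRCm38.p6).
Zfp36: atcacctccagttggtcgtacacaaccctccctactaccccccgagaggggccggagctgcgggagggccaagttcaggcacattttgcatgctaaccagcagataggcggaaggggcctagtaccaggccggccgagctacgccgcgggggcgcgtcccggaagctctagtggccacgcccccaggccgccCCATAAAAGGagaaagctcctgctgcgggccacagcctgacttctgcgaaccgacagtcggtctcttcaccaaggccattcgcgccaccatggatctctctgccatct
Egr2: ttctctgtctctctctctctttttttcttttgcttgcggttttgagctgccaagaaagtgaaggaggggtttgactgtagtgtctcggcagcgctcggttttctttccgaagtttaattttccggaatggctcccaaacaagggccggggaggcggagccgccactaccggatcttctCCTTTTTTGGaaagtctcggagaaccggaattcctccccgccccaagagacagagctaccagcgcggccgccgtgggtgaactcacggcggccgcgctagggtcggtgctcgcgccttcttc
Egr2 measured 7.56, 6.99, 7.51 and 6.91 in NdpKO;Ptch+/- GNPs, against 7.60, 7.70, 7.79 and 7.94 in Ptch+/- GNPs, with 2 arrays of the mutant close to the lowest Ptch+/- array. The difference was -0.51 (limma adjusted p = 0.46), and -0.62 without replicate 1 (limma adjusted p = 0.22).

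Genes of the granule lineage were examined next. Of 17 granule neuron differentiation genes 5 were lower and 0 higher without overlap, with a median of -0.22, and 7 and 0 without replicate 1, with a median of -0.20. The mean level over the 17 genes was 9.86 to 10.08 in NdpKO;Ptch+/- and 10.04 to 10.26 in Ptch+/- GNPs. It was 9.91 to 10.34 in NdpKO and 9.69 to 9.85 in WT GNPs, so WT lay below both groups. Slc17a7, the vesicular glutamate transporter, measured 6.199, 5.62, 5.85 and 4.86 in NdpKO;Ptch+/- GNPs, against 6.81, 6.78, 6.64 and 6.39 in Ptch+/- GNPs (-1.02 ± 0.36, limma adjusted p = 0.44, and -1.21 ± 0.38 without replicate 1, limma adjusted p = 0.21). The transcription factor Neurod2 measured 11.02, 10.61, 10.65 and 10.61 in NdpKO;Ptch+/- GNPs, against 11.04, 11.23, 11.10 and 11.12 in Ptch+/- GNPs, with replicate 1 just below the lowest Ptch+/- array (-0.40 ± 0.13, limma adjusted p = 0.37, and -0.50 ± 0.12 without replicate 1, limma adjusted p = 0.098). The splicing factor Rbfox3 measured 12.46, 12.37, 12.56 and 12.32 in NdpKO;Ptch+/- GNPs, against 12.65, 12.79, 12.79 and 12.62 in Ptch+/- GNPs (-0.28 ± 0.06, limma adjusted p = 0.17, and -0.30 ± 0.06 without replicate 1, limma adjusted p = 0.073). A second probe of Rbfox3 gave -0.30, of Syn1 -0.33 and of Neurod2 -0.41, each lower without overlap. The differentiation genes Dcx, Map2 and Cntn1 overlapped between the groups.

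Of 11 progenitor identity genes 2 were lower without overlap, also without replicate 1, Zic2 and Zic4, both zinc finger factors of the granule lineage. Zic2 measured 8.86, 8.60, 8.49 and 8.65 in NdpKO;Ptch+/- GNPs, against 9.15, 9.11, 9.16 and 9.12 in Ptch+/- GNPs (-0.49 ± 0.10, limma adjusted p = 0.18), and fell by 0.55 ± 0.10 without replicate 1 (limma adjusted p = 0.042). Zic4 measured 10.22, 9.89, 10.03 and 9.91 in NdpKO;Ptch+/- GNPs, against 10.53, 10.46, 10.34 and 10.49 in Ptch+/- GNPs (-0.44 ± 0.10, limma adjusted p = 0.20), and fell by 0.51 ± 0.09 without replicate 1 (limma adjusted p = 0.045). Of 3 further Zic4 probes at level 5, all overlapped between the groups, at -0.41, -0.36 and 0.00. In WT GNPs Zic2 was at 8.24 to 8.56 and Zic4 (first probe) at 9.80 to 10.03. Of 9 hedgehog genes the pathway inhibitor Sufu was lower without overlap, at 5.87 to 6.31 in NdpKO;Ptch+/- and 6.40 to 7.16 in Ptch+/- GNPs (-0.58 ± 0.33, limma adjusted p = 0.67, and -0.65 ± 0.37 without replicate 1, limma adjusted p = 0.59). Without replicate 1 there were 4 lower, the median was -0.35 in place of -0.26, and Ccnd2, a cyclin of dividing GNPs, fell by 0.35 (limma adjusted p = 0.027). The hedgehog targets Gli1 and Mycn lay below level 5. Of 25 cell cycle genes Aurka and Plk1, kinases of mitosis, were higher and E2f1 lower without overlap, with a median of 0.03. Without replicate 1 there were 6 higher and 3 lower, with a median of 8.6e-04.

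**Figure D3:**
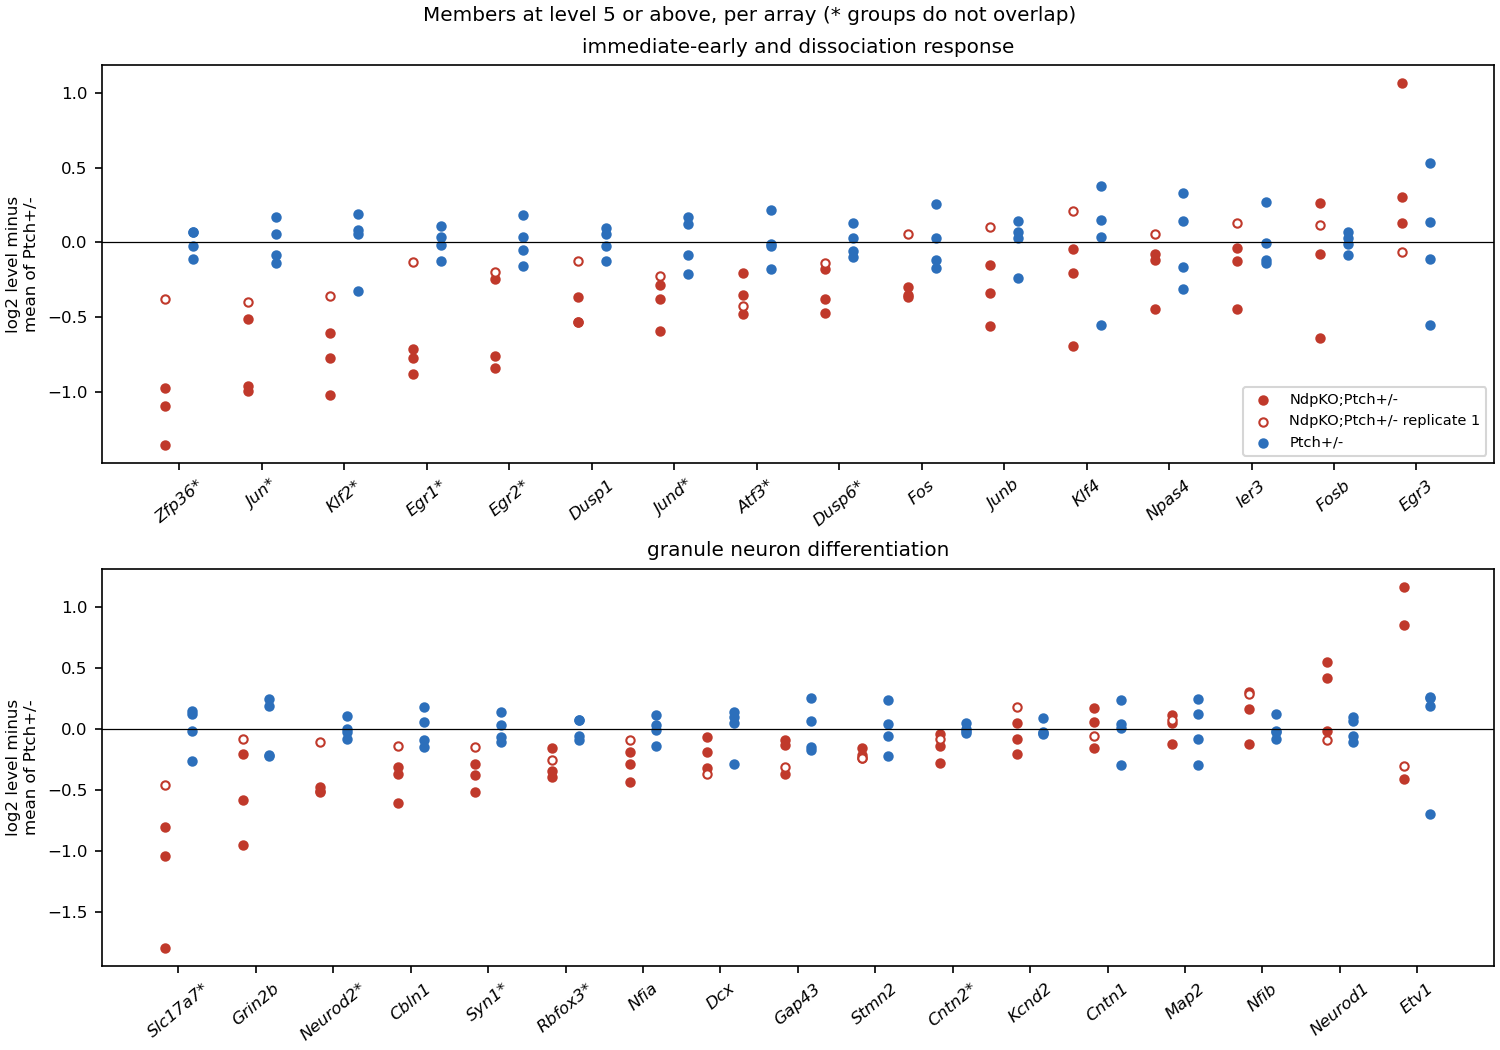
Log2 level minus the mean of the 4 Ptch+/- arrays (vertical axis) for each member at level 5 of the immediate-early list (16 genes, top) and the granule neuron differentiation list (17 genes, bottom), in NdpKO;Ptch+/- (red, left of each pair) and Ptch+/- arrays (blue). Open points are NdpKO;Ptch+/- replicate 1, which is often the red point nearest to the blue ones, and asterisks mark the 8 and 5 genes without overlap.

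The other lists gave few separated members with all 8 arrays and more without replicate 1. The heat shock chaperones Hspa1a and Hsph1 were lower, as was Hif1a of 9 hypoxia genes, while Vegfa was higher, at 7.69 to 7.74 in NdpKO;Ptch+/- and 7.38 to 7.67 in Ptch+/- GNPs. Without replicate 1 the heat shock list had 2 higher and 3 lower of 9, and the hypoxia list 3 higher and 2 lower. Id1, an inhibitor of differentiation, measured 8.38, 9.60, 9.23 and 9.88 in NdpKO;Ptch+/- GNPs, against 8.04, 7.91, 8.20 and 8.08 in Ptch+/- GNPs (1.21 ± 0.32, limma adjusted p = 0.30). It rose by 1.51 ± 0.28 without replicate 1 (limma adjusted p = 0.046). Of 16 integrated stress response genes 0 separated the groups with all arrays, and 6 were higher and 1 lower without replicate 1. The large housekeeping lists had medians of 0.01 over 53 ribosomal protein genes and 0.0028 over 62 respiratory chain genes. In each of these 1 gene was higher and 0 lower without overlap. Without replicate 1 there were 1 and 1 of the ribosomal and 2 and 2 of the respiratory genes. Rps15a averaged 8.79 in NdpKO;Ptch+/- and 8.20 in Ptch+/- GNPs, and Atp5g2 10.28 and 10.07, differences of 0.58 and 0.20, and of 0.71 and 0.23 without replicate 1. Of the oligodendrocyte list 1 of 13 genes was higher (Pdgfra), of axon guidance 1 of 14 (Unc5c), of Notch and Id genes 1 of 10 (Id1) and of choroid plexus and ependyma 1 of 4 (Rsph1). Without replicate 1 there were 1 higher and 1 lower of the oligodendrocyte, 4 and 1 of the axon guidance, 4 and 2 of the Notch and Id, and 1 and 0 of the choroid plexus genes. Without Ptch+/- replicate 3 the axon guidance list had 3 higher and 1 lower. The lists of Purkinje cells and interneurons, erythroid cells, p53 targets, interferon and antigen presentation, chemokines and leukocyte adhesion, and sex-linked transcripts had 0 separated members in either direction with all 8 arrays. Without replicate 1 there were 4 higher and 1 lower of 9 p53 targets, 3 and 2 of 9 Purkinje cell and interneuron genes, 2 and 0 of 4 interferon genes and 2 and 1 of 7 chemokine and adhesion genes, and 0 in the erythroid and sex-linked lists.

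**Figure D4:**
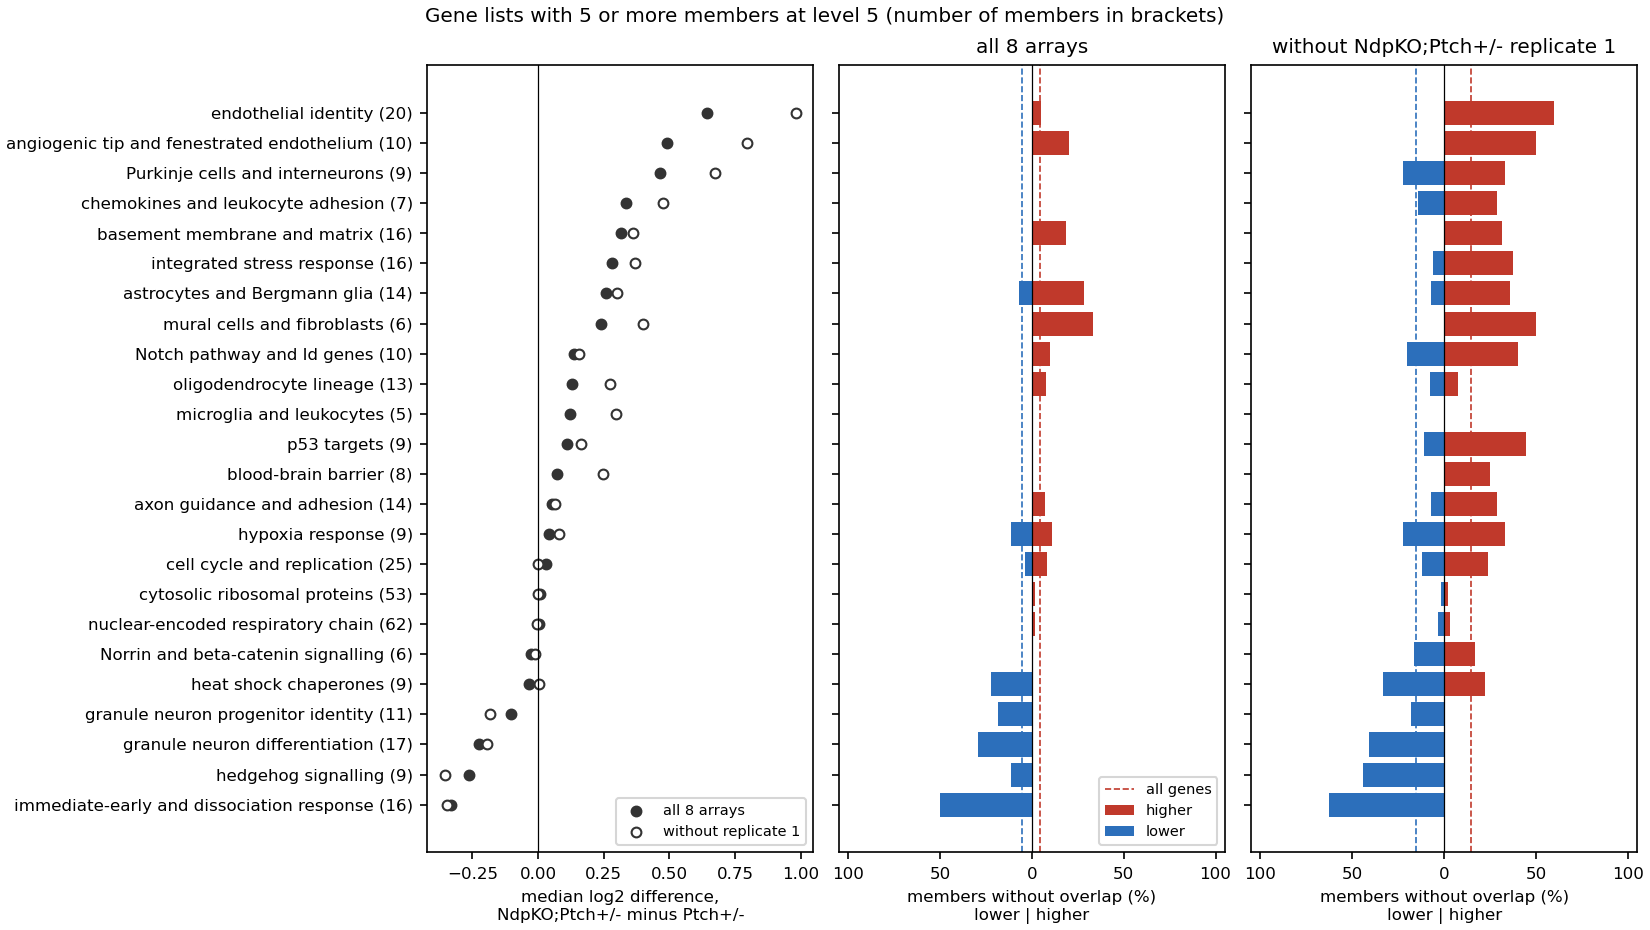
Gene lists with 5 or more members at level 5, ordered by median log2 difference, NdpKO;Ptch+/- minus Ptch+/- GNPs (left, filled for all 8 arrays and open without NdpKO;Ptch+/- replicate 1), and the share of members higher or lower without overlap with all arrays (middle) and without replicate 1 (right). Dashed lines are the shares over all 7063 genes, 4.56% and 5.15% in the middle and 14.5% and 15.3% on the right. The immediate-early list has the lowest median with all 8 arrays, at -0.33, and hedgehog signalling without replicate 1, at -0.354 beside -0.348. The endothelial share is 1 of 20 genes in the middle and 12 of 20 on the right.

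NdpKO and WT GNPs, which share no array with the comparison above, measured the loss of Ndp without a mutant Ptch allele. Of the gene probes, 6.23% were higher and 4.43% lower without overlap in NdpKO than in WT GNPs. Of the 399 probes higher in NdpKO;Ptch+/- GNPs 10 were also higher in NdpKO GNPs, which is 2.51% of the first set and 1.65% of the second, and 51 were lower there. Of the 508 lower probes 17 were also lower in NdpKO GNPs, 3.35% of the first set and 3.94% of the second, and 68 were higher there. Thg1l was at 5.13 to 5.61 in NdpKO and 6.61 to 6.98 in WT GNPs (-1.43 ± 0.18, limma adjusted p = 0.010), and Ube2cbp at 6.14 to 6.78 and 7.53 to 7.97 (-1.18 ± 0.20, limma adjusted p = 0.033). Ooep, Tex9, Gfap, Hspa1a and Atf3 were among the other genes lower without overlap in both. Plvap was at 4.81, 5.22, 6.17 and 6.42 in NdpKO and 4.32, 4.39, 4.29 and 5.71 in WT GNPs, with overlap (0.98 ± 0.41, limma adjusted p = 0.41). Of the other vascular genes, Angpt2 differed by -1.86 ± 0.70, Pecam1 by -1.10 ± 0.50 and Emcn by -0.10 ± 0.39 in NdpKO against WT GNPs, none of them called. The medians there were -0.60 for the 4 vascular and -0.89 for the 20 endothelial genes, opposite in sign to those in NdpKO;Ptch+/- GNPs, and this difference between list medians was not tested.

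The difference between both backgrounds was tested as an interaction, which called 224 probes (0.495%). This number was 1221 without NdpKO;Ptch+/- replicate 1, 1201 without NdpKO replicate 4 and 26 without Ptch+/- replicate 1. It was 2 when NdpKO;Ptch+/- replicate 2 was counted as NdpKO, though the Prm1 level of that array lay outside the NdpKO range. The interaction sets NdpKO;Ptch+/- and WT arrays against Ptch+/- and NdpKO arrays. The split of the arrays given above ran mostly along these sides, apart from NdpKO;Ptch+/- replicate 1 and NdpKO replicate 4. Its part in the called probes was not tested. Scrt2 was opposed, lower in NdpKO;Ptch+/- than in Ptch+/- GNPs and at 5.93 to 6.51 in NdpKO, against 4.50 to 4.86 in WT GNPs, with an interaction of -3.03 ± 0.31 (limma adjusted p = 0.0044). The interaction of Tpmt was -2.14 ± 0.27 (limma adjusted p = 0.0089) and that of Map2k6 -0.79 ± 0.11 (limma adjusted p = 0.014). These 3 were called without each of the 16 GNP arrays in turn. Of the 15 lowest genes 8 had a called interaction, and of the 15 highest 1, Myh8. Plvap, Tgfbi and Stc1 did not (limma adjusted p = 0.31, 0.11 and 0.088). These genes were picked by their difference between NdpKO;Ptch+/- and Ptch+/- GNPs, which is a part of the interaction. The number of them called is therefore not independent of the choice.

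**Figure D5:**
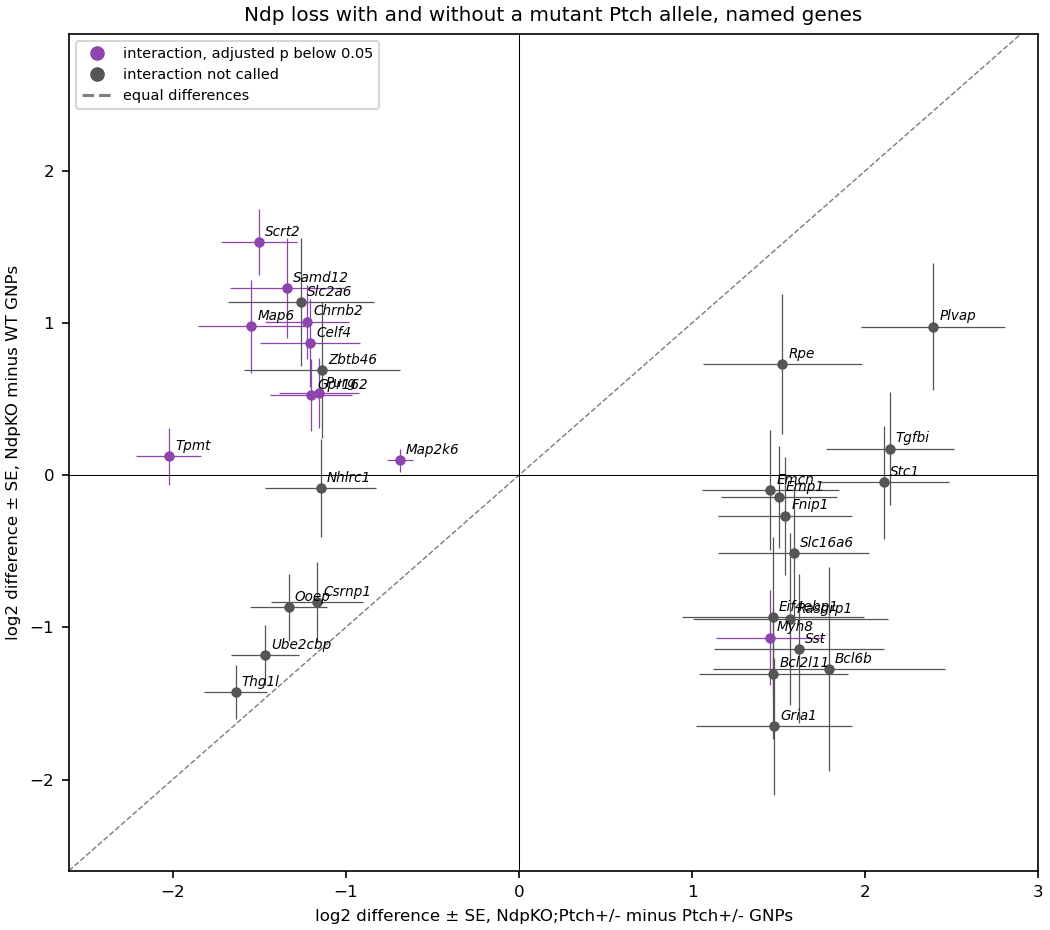
Log2 difference ± SE in NdpKO;Ptch+/- minus Ptch+/- GNPs (horizontal axis) against that in NdpKO minus WT GNPs (vertical axis) for the called genes at level 5 and the 15 highest and 15 lowest genes. Purple points have an interaction at adjusted p below 0.05 and the dashed line marks equal differences. Thg1l and Ube2cbp lie near that line, and Scrt2 lies far from it at -1.50 and 1.53.

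In the single tumours, 1 of each genotype and so without a test, Plvap was at 6.54 in the NdpKO;Ptch+/- and 4.17 in the Ptch+/- medulloblastoma, Emcn at 7.71 and 4.29, Esm1 at 7.67 and 4.12, and Thg1l at 4.69 and 7.02. Pecam1 was at 4.18 and 4.17, Angpt2 at 6.26 and 6.33 and Cldn5 at 8.18 and 8.64. Tpmt and Stc1 lay at background in both, and the unnamed probe ILMN_2690603 was at 7.37 and 8.23.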

How the data were processed

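Expression was measured on Illumina arrays in 16 GNP samples and 2 tumours. The deposited values are log2 levels that the authors made with neqc in limma (background correction, quantile normalization), and nothing further was applied. All arrays share a median of 4.13, and 23.0% to 23.9% of the probes of a GNP array reached level 5. Of 45281 probes 34885 had 1 symbol in the platform annotation, 18 had several and 10378 none. By Entrez identifier 34807 matched RefSeq (GRCm38.p6).

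Arrays were grouped by title. In limma 3.58.1 (R 4.3.3) a linear model with 1 mean for each of the 4 genotypes was fitted over 16 arrays, followed by empirical Bayes moderation and two-sided tests. Adjusted p is Benjamini-Hochberg over all probes, called below 0.05. The procedure was tested on simulated data. The p-values treat arrays as separate animals, as the study states for GNPs. Where 1 group averaged below level 5 the fold was computed against 5 as a lower bound, and where both did, none was given. The number of arrays limits the precision.

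The 29 gene lists and the members were chosen with earlier results of these data known. Genes named are Ndp, Ptch1, called genes, the 15 highest and 15 lowest without overlap at level 5, the 10 highest and 10 lowest called without replicate 1, 8 fixed genes, and up to 4 separated members of a list. Other members named overlap and serve as examples. Alternatives were arrays left out, a replicate block, filters, centring, array weights, trended variance, only 8 arrays, and another label for NdpKO;Ptch+/- replicate 2.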

Additional observations from a re-analysis of the deposited data

Results flagged for a closer look

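In 10 cases a single array of a named gene lay so far from the other 3 of its group that its gap to the nearest passed Dixon's critical share of the group's range, where chance gives about 1 in 20 groups. With 143 gene groups checked, chance would give about 7.2. For NdpKO;Ptch+/- replicate 1 there were 6. This array was lowest of its group in Sst, with a gap of 0.887 of the range, and highest in Map6 (0.852), Lars2 (0.838), Pkig (0.928), Prm1 (0.855) and Neurod2 (0.905). Lars2 and Pkig were named only from the fit without this array, so the number given by chance does not apply to them. For Ptch+/- replicate 3 there were 3, highest in Myh8 (0.918), Xist (0.999) and Tnc (0.859). Ptch+/- replicate 2 was highest in E2f1 (0.965).

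In 16 named genes the interaction between Ndp loss and Ptch status was called in limma. The part of the array split in it was not tested. These genes were named by their difference between NdpKO;Ptch+/- and Ptch+/- GNPs, which is a part of the interaction. Their number is therefore not independent of the choice. The interaction was -3.03 for Scrt2, -2.57 for Samd12, -2.52 for Map6, -2.23 for Chrnb2, -2.14 for Tpmt, -2.08 for Celf4, -1.73 for Gpr162, -1.69 for Purg, -0.96 for Zic2, -0.79 for Map2k6, -0.76 for Zic4 and -0.040 for Stra6, which lay within background. It was 2.52 for Myh8, 1.52 for Tnc, 0.91 for Lamc1 and 0.85 for Sox9. Without each of the 16 arrays in turn, Map2k6, Tpmt and Scrt2 were called in 16 of 16 fits, Stra6 in 14, Zic2 in 11 and Chrnb2 in 9, and the others in 2 to 4. With NdpKO;Ptch+/- replicate 2 counted as NdpKO, Tpmt was the 1 of these that passed (adjusted p = 0.044).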

How the results depend on the processing

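Against 7 probes called, array weights gave 28, a trended robust variance 36, testing probes at level 5 alone 41, and fitting the 8 arrays alone 1. Leaving out 1 array gave 5 to 232 (6 to 14 for NdpKO and WT arrays, a choice made after seeing the data), with 11 without Ptch+/- replicate 2, 13 without Ptch+/- replicate 4, 14 without NdpKO replicate 4 and 232 without NdpKO;Ptch+/- replicate 1. Replicate numbers did not pair the arrays, with correlations of same-number deviations of -0.27 to 0.04 over 4 pairs. With a replicate block 1 probe was called (Tpmt). The interaction called 795 with the trended robust variance, 72 with the replicate block, 2 with NdpKO;Ptch+/- replicate 2 counted as NdpKO, and 26 to 1221 leaving out 1 array. Causes were not tested.

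Over the named genes, 1891 of the recomputed differences kept direction and side of the threshold, 43 passed it newly, 25 no longer passed and 6 changed sign. The sign changes were in Ndp at background (-0.0031 to 0.0073 leaving out 1 array, and -0.0014 with replicate 2 counted as NdpKO) and in Cldn5 (-0.068 to 0.25 leaving out 1 array). Of the list medians, that of sex-linked transcripts moved by over the spread, to 1.05 at level 6. Probes near background limit the rest.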
